A study of Mus musculus with 6 samples.

Results

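Mitochondrial ribosomal proteins were described in crypts of the mouse intestine, the glands at the base of the epithelium in which its stem cells divide. The genes were those with a symbol beginning Mrpl (large subunit) or Mrps (small subunit) followed by a number, each read on its probe set with the highest mean signal. These were 77 of the 19938 genes tested, 48 Mrpl and 29 Mrps genes. RefSeq lists 78 such protein-coding genes, and the remaining one, Mrpl53, shares its probe set with Ccdc142. Crypts came from 3 YAP Tg mice and 3 control mice, 1 array per mouse, and the series title names the transgene as YAP-S127A with Villin-rtTA. YAP-S127A is a form of the transcriptional coactivator YAP in which a serine phosphorylated by the Hippo pathway is replaced, and the villin promoter is active in the intestinal epithelium, so rtTA switches the transgene on there when doxycycline is given. Mice had doxycycline for 2 days, and crypts were then released with EDTA. The sources used here do not say whether the control mice received the drug or carried rtTA, so either and the effect of YAP cannot be told apart. They also do not give the age, sex or strain of the mice.

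The mitochondrial ribosome translates the few messages encoded by mitochondrial DNA, all of which specify subunits of the respiratory chain and ATP synthase. Its proteins are encoded in the nucleus, made in the cytosol and imported, and they assemble on rRNAs that the mitochondrion makes itself. Many descend from bacterial ribosomal proteins, and others, found only in mitochondria, were added in the course of evolution. Crypt progenitors divide rapidly and renew the gut lining within days.

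Values below are log2 signals, on which a difference of 1 is a 2-fold difference, and every difference is YAP Tg minus control. A gene is said to have risen or fallen only at an adjusted p below 0.05 in limma's test across all genes. On the YAP Tg arrays the secreted matricellular protein Ccn1, a YAP target, stood at 10.80, 10.61 and 10.60, against 6.22, 6.17 and 6.16 on the control arrays (log2 difference 4.49, limma adjusted p = 2.11e-05). Over all genes tested 7.5% rose and 6.7% fell. Of 10 epithelial markers 4 rose and 1 fell, with median levels of 12.15, 12.18 and 12.19 in YAP Tg crypts, against 11.54, 11.67 and 11.53 in control crypts. Taken gene by gene, their median difference from the control mean was smaller, at 0.29, 0.24 and 0.22 on YAP Tg arrays 1, 2 and 3. Of 8 crypt markers 4 fell, among them the stem cell receptor Lgr5 (log2 difference -1.76, limma adjusted p = 0.013). Of 10 lymphocyte markers (T cells, intraepithelial cells) 9 rose, with a median difference of 1.45, 1.38 and 1.32 on YAP Tg arrays 1, 2 and 3. The YAP Tg arrays also carried a higher median of what were taken for control probe sets of the array, 5.33, 5.15 and 5.03, against 4.97 to 4.99 on the control arrays. In such tissue RNA fewer cells of a type and less RNA per cell cannot be told apart, and the part of lymphocytes and array background in the values below was not tested.

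YAP Tg array 2 stood apart from the other YAP Tg arrays for the mitochondrial ribosomal proteins, so the values are given with and without it. On arrays 1 and 3 the 77 genes had median differences from the control mean of -0.71 and -0.60, which correspond to 61.2% and 66.0% of the control level. On array 2 the median was -0.09, or 93.8% of the control level. That least affected array lay below the control arrays, whose own medians were -0.05, 0.01 and 0.04, but by less than the distance from one end of the controls to the other. Over all genes tested the medians on YAP Tg arrays 1, 2 and 3 were 0.02, -0.00 and 0.05.

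**Figure D1:**
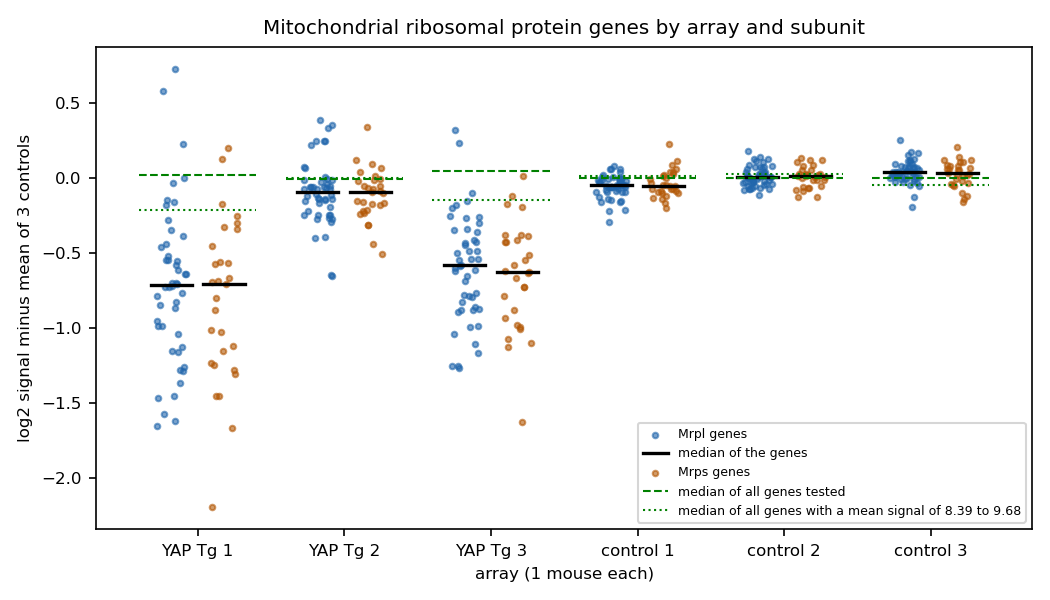
Each point is 1 gene on 1 array, as its log2 signal minus the mean of the 3 control arrays, with YAP Tg arrays 1 to 3 left of control arrays 1 to 3, Mrpl genes in blue and Mrps genes in orange. Black bars are medians of each set, dashed green lines medians of all genes tested and dotted green lines medians of genes with a mean signal of 8.39 to 9.68. Most points of YAP Tg arrays 1 and 3 lie below 0, while those of array 2 lie close to the controls.

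The genes were well expressed, with a median level of 9.05 over the 6 arrays, above 81.0% of the genes tested. Genes with a mean signal between the quartiles of the mitochondrial ribosomal proteins, 8.39 to 9.68, had median differences of -0.21, 0.00 and -0.14 on YAP Tg arrays 1, 2 and 3. The 39 mitochondrial ribosomal proteins of that same range had -0.58, -0.07 and -0.50. The lower level of these genes on arrays 1 and 3 was thus larger than that of the 3085 genes of like signal, which were themselves below the control mean on both arrays. Across the 77 genes the mean level and the difference had a Pearson correlation of 0.02, given as a description of genes that share the same arrays.

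Of the 77 genes, 73 had a difference below 0, or 94.8% against 43.6% of all genes tested. The median difference was -0.49, against 0.03 over all genes. At like signal the contrast was smaller. Of the 39 genes in the signal range given above 92.3% lay below 0, against 60.8% of its 3085 genes. The median differences there were -0.39 and -0.13. By limma's test 9 of the 77 fell (11.7%), against a background of 6.7% of genes tested, and 0 rose, against 7.5%. At like signal the shares called lower lay close together: 4 of the 39 mitochondrial ribosomal proteins with a mean signal of 8.39 to 9.68 fell (10.3%), against 12.3% of the 3085 genes of that range. The share of calls in the set was thus near that of genes of like signal. At an unadjusted p below 0.05 in limma's test, 48 of the 77 were lower (62.3%) and 2 higher (2.6%), against 16.2% and 13.7% of all genes, and of the 39 in the signal range 51.3% were lower, against 29.7%. Without YAP Tg array 2, limma called 61 lower (79.2%, against 19.5% of all genes) and 1 higher (1.3%, against 14.1%). Array 2 was singled out because these genes were least lowered on it, so the values without it are a description and not a test of the decrease. Leaving out any other array lowered the count, in a setting where fewer genes were called overall. Without YAP Tg array 1, limma called 2 lower (4.46% of all genes), without YAP Tg array 3 it called 0 (4.07%), and without any one control array 0 (1.85% to 2.32%), with 14 to 22 lower at an unadjusted p below 0.05 in limma's test.

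All 3 YAP Tg arrays lay below all 3 control arrays for 40 of the 77 genes, or 51.9%, against 17% of all genes tested. All 3 lay above for 2 genes, or 2.6%, against 16.5%. YAP Tg arrays 1 and 3 both lay below every control for 69 genes (89.6%, against 27.3% of all genes). Array 2 lay below every control for 42 genes (54.5%, against 33.7%) and above every control for 12 (15.6%, against 28.3%). It was the highest of the YAP Tg arrays for 69 genes (89.6%, against 30.3%), and for 57 the order was array 1 lowest, then 3, then 2 (74.0%, against 20.4%). The median SD over the genes was 0.37 in YAP Tg and 0.08 in control crypts (n = 3 each), and over all genes tested it was 0.16 in YAP Tg and 0.08 in control crypts. The 39 genes of the signal range given above were also set against its 3085 genes. All 3 YAP Tg arrays lay below the controls for 46.2%, against 29.7%. Arrays 1 and 3 did so for 84.6%, against 49.3%. Array 2 lay below every control for 51.3%, against 38.2%, and above for 17.9%, against 39.0%. It was the highest for 84.6%, against 52.3%, and the order 1, 3, 2 held for 69.2%, against 40.1%. The median YAP Tg SD was 0.31, against 0.24.

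**Figure D2:**
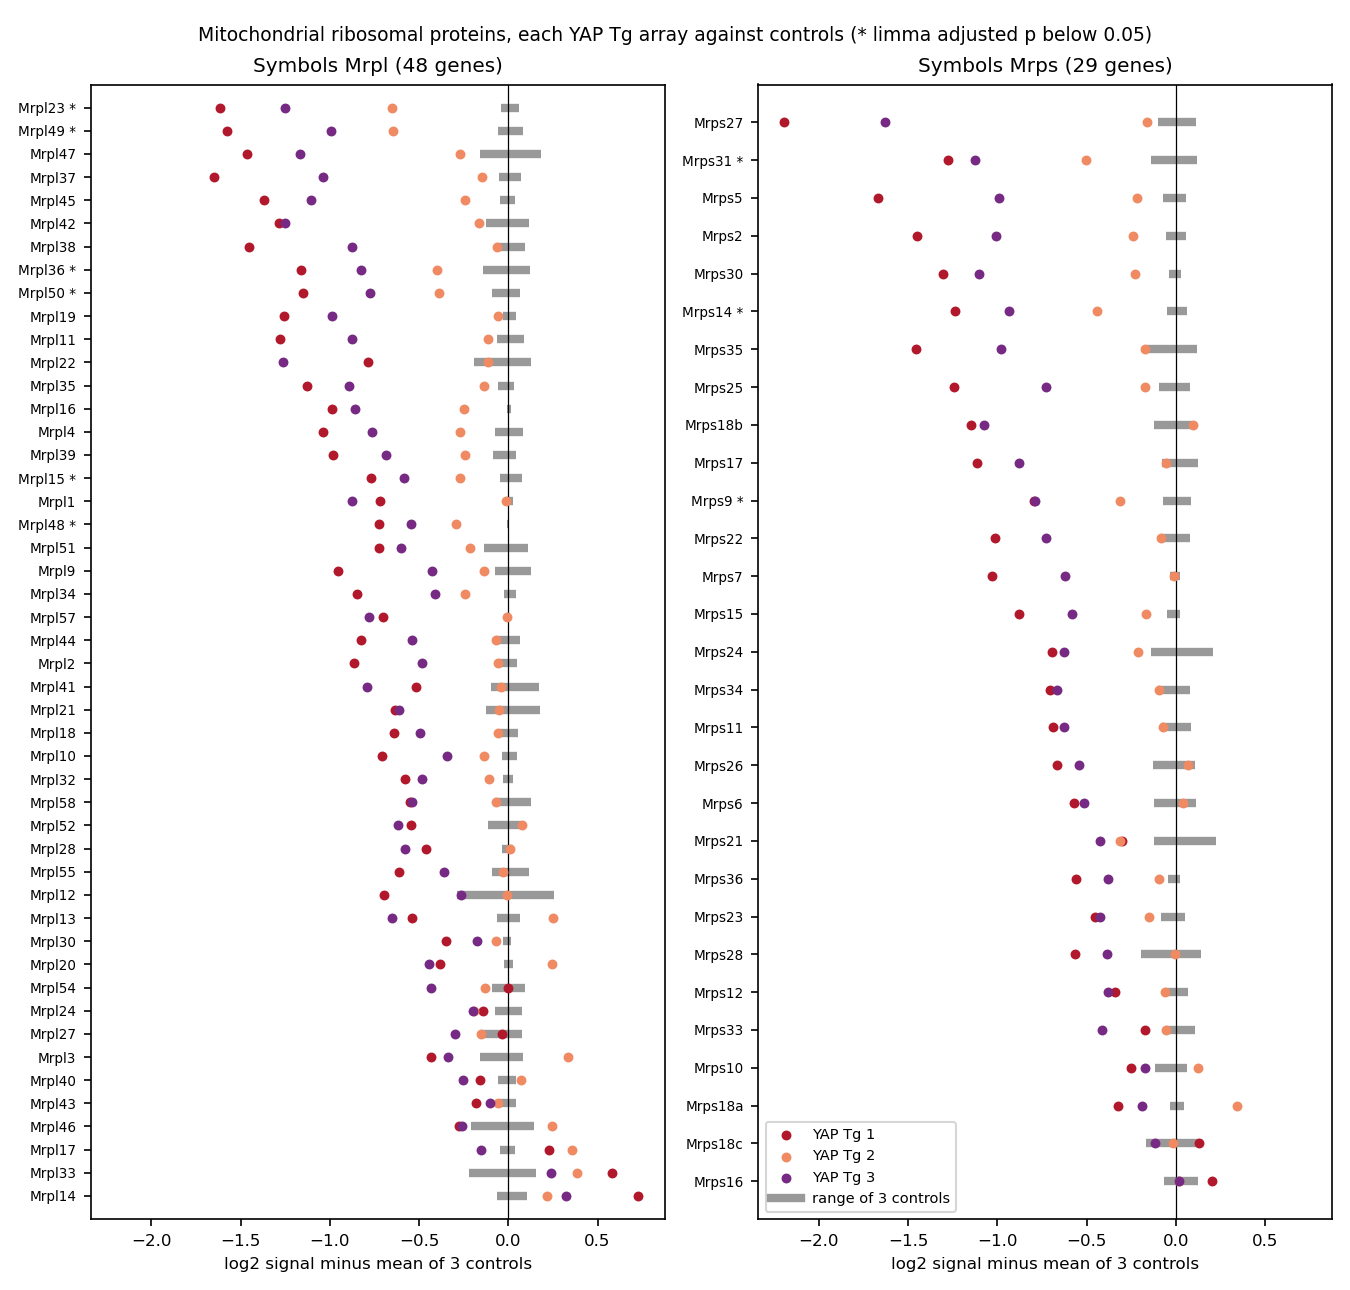
Every Mrpl gene (left) and Mrps gene (right), ordered by the mean difference of the YAP Tg arrays from the controls, with the log2 signal minus the mean of the 3 controls on the horizontal axis. Points are YAP Tg arrays 1, 2 and 3, grey bars run over the 3 control arrays, and an asterisk marks a limma adjusted p below 0.05; the 9 genes so marked have array 2 clear of the grey bar as well as arrays 1 and 3.

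Of the large subunit, 6 genes fell. Mrpl23, whose bacterial counterpart lies at the exit of the peptide tunnel, had 9.24, 10.20 and 9.60 on the YAP Tg arrays, against 10.92, 10.82 and 10.84 on the control arrays. All 3 YAP Tg values lay below the controls, and the difference was -1.17 (SE 0.23, limma adjusted p = 0.0236). A second Mrpl23 probe set had nearly the same signals and a difference of -1.12. It is numbered among those of another chromosome, where RefSeq places the pseudogene Mrpl23-ps1. Whether either probe set tells the gene from its pseudogene was not tested. Mrpl49, a protein found only in mitochondria, had 8.64, 9.57 and 9.22 in YAP Tg crypts, against 10.16, 10.19 and 10.30 in control crypts, again with no overlap. Its difference was -1.07 (SE 0.23, limma adjusted p = 0.0285).

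Mrpl36, the counterpart of a small zinc-binding bacterial protein, averaged 9.76 ± 0.38 in YAP Tg and 10.56 ± 0.13 in control crypts (SD, n = 3 each; limma adjusted p = 0.0459). Mrpl50, found only in mitochondria, averaged 9.10 ± 0.38 in YAP Tg and 9.87 ± 0.08 in control crypts (SD, n = 3 each; limma adjusted p = 0.0451). Mrpl15, a conserved protein of the large subunit core, averaged 9.14 ± 0.25 in YAP Tg and 9.68 ± 0.07 in control crypts (SD, n = 3 each; limma adjusted p = 0.0469). In these 3 genes too the groups did not overlap, and array 2 was the highest of the YAP Tg arrays. Mrpl48, a mitochondrial protein of the central protuberance, had 9.49, 9.92 and 9.67 in YAP Tg crypts, against 10.21, 10.22 and 10.21 in control crypts (log2 difference -0.52, limma adjusted p = 0.0336). Its only probe set is numbered among those of another chromosome, where RefSeq places the pseudogene Mrpl48-ps, so the gene and its pseudogene cannot be told apart there.

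Of the small subunit, 3 genes fell. Mrps31, found only in mitochondria, had 7.94, 8.71 and 8.09 in YAP Tg crypts, against 9.23, 9.33 and 9.08 in control crypts (log2 difference -0.97, SE 0.21, limma adjusted p = 0.029). Mrps14 averaged 7.90 ± 0.40 in YAP Tg and 8.77 ± 0.06 in control crypts (SD, n = 3 each; limma adjusted p = 0.0343). Mrps9 had 7.51, 7.99 and 7.52 in YAP Tg crypts, against 8.24, 8.39 and 8.29 in control crypts (log2 difference -0.63, limma adjusted p = 0.0368). Mrps14 and Mrps9 belong to the head of the small subunit, and in bacteria the tail of the Mrps9 counterpart reaches the peptidyl tRNA. YAP Tg array 2 lay below every control in all 3 genes. Each of the 9 genes lost its call when some single array was left out, with a highest adjusted p in limma's test of 0.105 for Mrpl23 to 0.169 for Mrpl15.

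**Figure D3:**
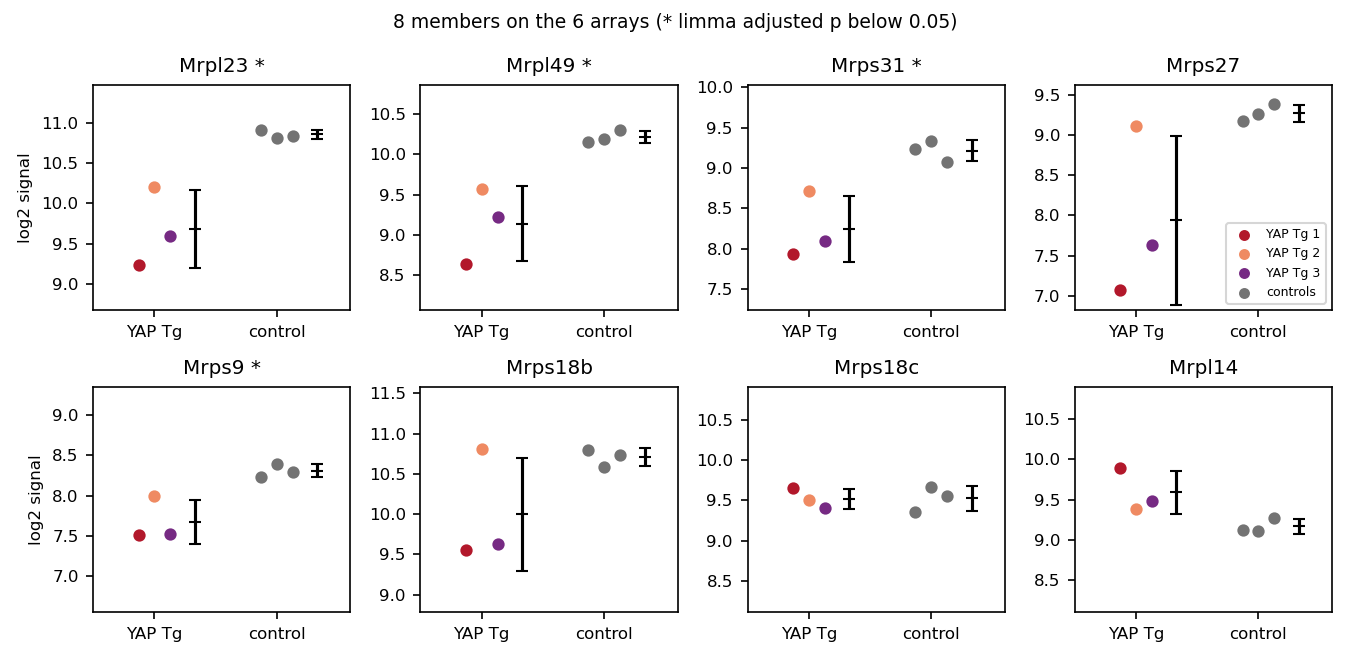
Log2 signals of 8 genes in YAP Tg crypts (left in each panel, arrays 1, 2 and 3 in red, orange and purple) and control crypts (right, arrays 1, 2 and 3 in grey), with bars for mean ± SD (n = 3 each). Mrpl23, Mrpl49, Mrps31 and Mrps9 have no overlap between the groups, Mrps27 has a wide YAP Tg spread, Mrps18b has array 2 at the control level, Mrps18c overlaps fully and Mrpl14 has all YAP Tg values above the controls. An asterisk marks a limma adjusted p below 0.05, and each panel has its own vertical range.

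The largest measured difference was that of Mrps27, a pentatricopeptide repeat protein of the small subunit that binds RNA. It had 7.07, 9.11 and 7.64 on the YAP Tg arrays, against 9.17, 9.25 and 9.38 on the control arrays. Array 2 lay next to the controls while arrays 1 and 3 lay far below, so the difference of -1.33 had an SE of 0.49 and did not pass (limma adjusted p = 0.135). It was -0.89, -1.91 and -1.18 without YAP Tg array 1, 2 or 3, with limma adjusted p-values of 0.293, 0.00207 and 0.331.

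Other large differences had the same shape. Mrpl47, which lies near the peptide exit, stood at -0.97, Mrps5, whose bacterial counterpart bears on decoding accuracy, at -0.96, Mrpl37 at -0.95 and Mrpl45, which helps to dock the ribosome to the inner membrane, at -0.90. Mrps30, which sits in the large subunit despite its symbol, stood at -0.88. Their limma adjusted p-values ran from 0.0871 for Mrpl45 to 0.139 for Mrpl37. Without YAP Tg array 2 the 5 differences ran from -1.35 for Mrpl37 to -1.20 for Mrps30, with limma adjusted p-values of 0.0013 to 0.0067. Without YAP Tg array 1 or 3 none of the 5 passed, with limma adjusted p-values of 0.196 to 0.318. A second probe set of Mrpl47 went the other way, with a difference of 0.10, so its probe sets disagree.

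Genes of the functional centres showed a range of values. Mrpl11, which forms the base of the stalk that recruits translation factors, had 7.91, 9.08 and 8.31 in YAP Tg crypts, against 9.13, 9.28 and 9.16 in control crypts, with array 2 just below the controls (limma adjusted p = 0.137). Mrpl12, which forms the stalk itself and also binds the mitochondrial RNA polymerase, had 9.78, 10.47 and 10.21 in YAP Tg crypts, against 10.19, 10.51 and 10.74 in control crypts. The Mrpl12 groups overlapped (log2 difference -0.32, limma adjusted p = 0.355), and the gene did not pass without YAP Tg array 1, 2 or 3 either (limma adjusted p = 0.696, 0.131 and 0.481). Mrpl10, at the foot of the stalk, stood at -0.40 and Mrpl44, which has a ribonuclease III fold, at -0.48, and neither passed (limma adjusted p = 0.136 and 0.153). Mrps12, which lines the decoding centre, stood at -0.26 and Mrps22 at -0.61 (limma adjusted p = 0.158 and 0.143).

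Mrpl3, a neighbour of the peptidyl transferase centre, was a gene where array 2 lay above every control. It had 9.75, 10.52 and 9.85 in YAP Tg crypts, against 10.03, 10.27 and 10.26 in control crypts, so arrays of the same group lay on both sides of the controls. Its difference of -0.15 did not pass (limma adjusted p = 0.68), and it was -0.00, -0.39 and -0.05 without YAP Tg array 1, 2 or 3 (limma adjusted p = 1, 0.0346 and 0.928).

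Few genes had a higher mean in YAP Tg crypts. Mrpl14, which faces the small subunit and is the docking site of the assembly factor Malsu1, had 9.90, 9.38 and 9.49 in YAP Tg crypts, against 9.12, 9.10 and 9.27 in control crypts. Mrpl33, among the least strongly detected of these genes, had 7.09, 6.90 and 6.75 in YAP Tg crypts, against 6.30, 6.58 and 6.67 in control crypts. In both genes all 3 YAP Tg values lay above the controls, with differences of 0.42 and 0.40 that did not pass (limma adjusted p = 0.113 and 0.106). In Mrpl14 array 1, the lowest for most of the genes, was the highest. Mrpl17 stood at 0.14 and Mrps16 at 0.08, both with overlapping groups (limma adjusted p = 0.528 and 0.606).

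The 3 Mrps18 genes are paralogs of a single bacterial protein, and they differed among themselves. Mrps18b, which occupies the small subunit away from the bacterial site, had 9.56, 10.80 and 9.63 in YAP Tg crypts, against 10.80, 10.59 and 10.74 in control crypts. Arrays 1 and 3 lay about 1 log2 unit below the controls and array 2 at their level (log2 difference -0.71, limma adjusted p = 0.21). Mrps18a, a protein of the large subunit, had 9.38, 10.05 and 9.52 in YAP Tg crypts, against 9.75, 9.70 and 9.68 in control crypts. There array 2 lay above the controls and arrays 1 and 3 below them (log2 difference -0.06, limma adjusted p = 0.849). Mrps18c, which takes the bacterial position, had 9.65, 9.51 and 9.40 in YAP Tg crypts, against 9.36, 9.66 and 9.55 in control crypts, with full overlap and a difference of -0.00 (limma adjusted p = 0.992).

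The highest level belonged to Mrpl40, with a mean of 11.05 ± 0.17 in YAP Tg and 11.17 ± 0.05 in control crypts (SD, n = 3 each; limma adjusted p = 0.486). Mrps17, one of the least strongly detected, had 6.24, 7.31 and 6.48 in YAP Tg crypts, against 7.31, 7.28 and 7.48 in control crypts (log2 difference -0.68, limma adjusted p = 0.152). Mrps36, which carries the family symbol but is now known as a subunit of the oxoglutarate dehydrogenase complex, stood at -0.35 (limma adjusted p = 0.127). Of all 77 genes, 3 had a difference below -1, 34 between -1 and -0.5, and 36 between -0.5 and 0.

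Large and small subunit genes did not separate. The 48 Mrpl genes had median differences of -0.71, -0.09 and -0.58 on YAP Tg arrays 1, 2 and 3, and the 29 Mrps genes had -0.71, -0.09 and -0.63. The large minus small difference was -0.01, 0.00 and 0.05 on the YAP Tg arrays, against 0.01, -0.01 and 0.01 on the control arrays. Over the group means it was 0.04, and it turned to -0.01 when control array 3 was left out. With the subunits set by ribosome structure, which moves Mrps30 and Mrps18a to the large subunit and leaves Mrps36 out, it was 0.05. By limma 6 of 48 Mrpl genes (12.5%) and 3 of 29 Mrps genes (10.3%) fell. The share was 6.7% of all genes tested and 12.3% of the 3085 genes of like signal, so both lay near the latter.

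Origin gave medians that lay somewhat further apart. The 46 proteins classed as having a bacterial counterpart had medians of -0.70, -0.07 and -0.54 on YAP Tg arrays 1, 2 and 3. The 30 classed as found only in mitochondria had -0.78, -0.11 and -0.71. The latter set holds Mrps18a and Mrps18b, although the Mrps18 genes are paralogs of a bacterial protein. On the control arrays the medians of the bacterial set minus those of the mitochondrial set lay between -0.01 and 0.01. The 10 small subunit proteins classed as found only in mitochondria, Mrps18b among them, had the lowest medians of the subunit and origin sets, -1.08, -0.12 and -0.73. Below 0 stood 42 of the 46 (91.3%) and all 30 of the mitochondrial set, against 43.6% of all genes tested and 60.8% of the 3085 genes of like signal. Limma called 5 of 46 (10.9%) and 4 of 30 (13.3%) lower, against 6.7% and 12.3%. These 2 shares of calls thus lay near that of genes of like signal. No test of the difference between these sets was made.

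Mitochondrial ribosomal proteins with other symbols were described beside them. Of 5 listed, 4 were measured and 0 passed in limma's test, with 1 lower at an unadjusted p below 0.05. Dap3, the GTP-binding protein of the small subunit, averaged 9.47 ± 0.37 in YAP Tg and 10.02 ± 0.07 in control crypts (SD, n = 3 each; limma adjusted p = 0.111). Ptcd3, a pentatricopeptide repeat protein of the small subunit like Mrps27, had 7.68, 9.08 and 7.86 in YAP Tg crypts, against 8.99 to 9.01 in control crypts (limma adjusted p = 0.194). Both had arrays 1 and 3 below every control, while array 2 lay below the controls for Dap3 and above them for Ptcd3. Chchd1 and Gadd45gip1 had differences of -0.16 and -0.20, with array 2 above every control and arrays 1 and 3 below every control (limma adjusted p = 0.706 and 0.732). The medians of the 4 genes on YAP Tg arrays 1, 2 and 3 were -0.86, 0.24 and -0.57, so that on array 2 they stood above the control mean.

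Other parts of the mitochondrial translation system had medians of the same order. Of 14 translation factors all had a difference below 0 and 0 passed limma's test (10 at an unadjusted p below 0.05), and their medians on YAP Tg arrays 1, 2 and 3 were -0.80, -0.13 and -0.58. The nearest to passing was the initiation factor Mtif2, at -0.44 (limma adjusted p = 0.0511). Of 16 mitochondrial aminoacyl-tRNA synthetases 3 fell (18.8%, against 6.7% of all genes tested), Rars2 (-1.24), Hars2 (-0.62) and Fars2 (-0.61). Their medians were -0.97, -0.25 and -0.72. Of 21 assembly and rRNA modification genes 3 fell (14.3%), the GTPase Gtpbp10 (-1.10) and the rRNA methyltransferases Nsun4 (-0.89) and Mrm3 (-0.62). The medians of that list were -0.58, -0.09 and -0.51.

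Genes that keep and transcribe mitochondrial DNA included Tfam, the largest decrease among the genes of these translation, synthetase, assembly and DNA lists that passed. Tfam, which packages mitochondrial DNA and starts its transcription, had 6.86, 7.95 and 7.20 in YAP Tg crypts, against 8.56, 8.87 and 8.55 in control crypts (log2 difference -1.32, limma adjusted p = 0.0278). Of 11 such genes 2 fell (18.2%, against 6.7% of all genes tested), and the medians were -0.76, -0.21 and -0.68. Of 24 import genes only Tomm7 fell (-0.45, limma adjusted p = 0.031), or 4.17% of that list, with medians of -0.63, -0.03 and -0.52.

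The respiratory chain had a flatter profile over the YAP Tg arrays. Of its 82 subunits measured, 8 fell by limma (9.76%, against 6.7% of all genes tested) and 0 rose (against 7.5%). Of the 8, 7 were complex I subunits such as Ndufa10 (-0.60) and Ndufb10 (-0.52). Its medians on YAP Tg arrays 1, 2 and 3 were -0.21, -0.17 and -0.11, so array 2 did not stand apart there. Array 2 was the highest YAP Tg array for 26.8% of these genes, against 89.6% of the mitochondrial ribosomal proteins. Most other lists were like the latter. The share was 89.8% for cytosolic ribosomal proteins, 100% for translation factors, 93.8% for synthetases and 87.5% for import genes. It was 81.8% for genes of mitochondrial DNA, 81.0% for assembly genes and 52.3% for the 3085 genes of like signal. The 59 cytosolic ribosomal proteins had medians of -0.44, -0.07 and -0.49, with 6 called lower (10.2%) and 0 higher. No test between the lists was made.

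**Figure D4:**
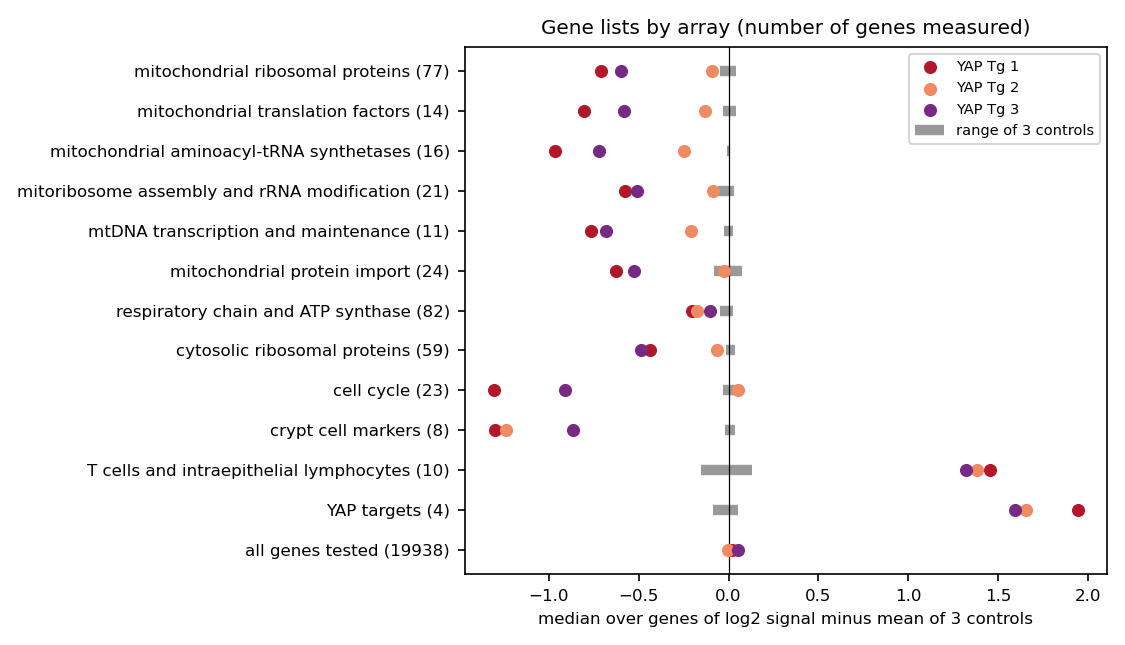
Medians over the genes of each list, by array, of the log2 signal minus the mean of the 3 controls, with the number of genes measured in brackets. Points are YAP Tg arrays 1, 2 and 3 and grey bars run over the 3 control arrays. Array 2 lies nearer 0 than arrays 1 and 3 for the mitochondrial ribosomal proteins and the cell cycle genes. The same holds for the translation factor, synthetase, assembly, mitochondrial DNA, import and cytosolic ribosomal lists. Array 2 lies beside arrays 1 and 3 for the respiratory chain, crypt markers, T cell markers and YAP targets.

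For YAP targets, lymphocyte markers and crypt markers the median of array 2 lay between those of arrays 1 and 3. The 4 YAP targets Ccn1, Ccn2, Amotl2 and Lats2, listed after their values were seen, had medians of 1.94, 1.65 and 1.59 on YAP Tg arrays 1, 2 and 3. Crypt markers had -1.30, -1.24 and -0.87. The 23 cell cycle genes had -1.31, 0.05 and -0.91, with array 2 the highest of the YAP Tg arrays in all 23. Limma called 0 of them, with 5 lower and 1 higher at an unadjusted p below 0.05. The part of cell division in the level of the mitochondrial ribosomal proteins was not tested. By limma 0 of 8 stroma markers and 0 of 3 endothelial markers passed (0 and 1 at an unadjusted p below 0.05), and of 4 macrophage markers 2 rose.

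Among known regulators of nuclear genes for mitochondria, the factors Nrf1 and Gabpa stood at 0.05 and -0.20 and neither passed (limma adjusted p = 0.623 and 0.242). Myc stood at -0.08 (limma adjusted p = 0.883). Mycn and the lipid receptor Ppara fell, by 0.34 and 1.59 on the log2 scale (limma adjusted p = 0.0269 and 0.00966). Ppara had 7.17, 8.04 and 7.64 in YAP Tg crypts, against 9.44, 9.23 and 8.94 in control crypts. These were 2 of the 11 regulators listed (18.2%, against 6.7% of all genes tested).

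Promoters, here 250 bases before to 50 bases after the start, were found for 68 of the 77 genes in RefSeq (GRCm38.p6), and 5 motifs were searched on both strands by exact letters. The motif CCGGAAG of ETS factors such as Gabpa was in 24 of them (35.3%, against 12.5% of the promoters of genes tested), GCGCATGCG of Nrf1 in 7 (10.3%, against 2.62%) and ATGGCGGC of Yy1 in 11 (16.2%, against 3.41%). GGAATG of the TEAD factors, the DNA-binding partners of YAP, was in 8 (11.8%, against 13.1%), and CACGTG, bound by Myc, in 5 (7.35%, against 8.38%). Genes with the ETS motif had a median difference of -0.35, against -0.54 for those without it. For Yy1 the medians were -0.72 and -0.43, and for TEAD -0.57 and -0.44. They lay closer together for Nrf1, at -0.51 and -0.47, and for CACGTG, at -0.47 and -0.48. A match of letters does not show a bound site, and no factor's binding was measured.

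Of the 68 genes with a promoter found, 24 start within 500 bases of a gene on the opposite strand that runs the other way. The rest of the 77 could not be searched. Of the 20 such partners that were measured and are not themselves in the set, 16 had a difference below 0, against 43.6% of all genes tested. Among the 16 were Twnk, Sars2 and Ndufb5, which belong to the mitochondrial lists above. The median of the partners was -0.18. It was -0.45 for the mitochondrial ribosomal genes with any measured partner, Mrps11 and Mrpl46 included. The bases between the starts are shown for 3 of these pairs, chosen after their values were seen, on the strand of the mitochondrial ribosomal gene and with matches to the 5 motifs in capitals. They are Mrpl50 with Zfp189 (chr4:49521084-49521175, minus strand), whose signals changed in opposite directions, the large and small subunit genes Mrps11 with Mrpl46 (chr7:78783090-78783130, plus strand), and Mrps27, which had the largest difference, with Ptcd2 (chr13:99344679-99344785, plus strand).
Mrpl50: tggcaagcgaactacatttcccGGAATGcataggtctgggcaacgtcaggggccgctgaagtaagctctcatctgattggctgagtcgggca
Mrps11: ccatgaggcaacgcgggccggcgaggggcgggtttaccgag
Mrps27: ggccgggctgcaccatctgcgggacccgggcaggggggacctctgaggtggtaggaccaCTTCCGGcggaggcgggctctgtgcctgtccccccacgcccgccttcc
The Mrpl50 stretch holds 1 TEAD match, the Mrps27 stretch 1 ETS match on the other strand, and the Mrps11 stretch none of the 5. Over the 92 bases between its start and that of Mrpl50, the zinc finger gene Zfp189 had 7.23, 6.92 and 7.11 in YAP Tg crypts, against 6.60, 6.69 and 6.44 in control crypts, and rose by 0.51 (limma adjusted p = 0.0303), while Mrpl50 fell by 0.77. Mrps11 and Mrpl46, with 41 bases between them, stood at -0.46 and -0.10 and neither passed (limma adjusted p = 0.138 and 0.74). Ptcd2, a pentatricopeptide repeat protein of mitochondrial RNA processing, had 7.72, 9.07 and 8.06 in YAP Tg crypts, against 9.22, 9.19 and 9.38 in control crypts. Like Mrps27 it had array 2 next to the controls and arrays 1 and 3 far below (log2 difference -0.98, limma adjusted p = 0.111).

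Probe sets limited some of the values. The 77 genes had 85 probe sets, and for 5 genes, Mrpl27, Mrpl41, Mrpl48, Mrpl51 and Mrps33, the probe set used is numbered among those of another chromosome. In Mrpl51 it had a difference of -0.51, against -0.83 on the probe set of the gene's own chromosome, and in Mrps33 both stood at -0.21. In Mrpl41 it had -0.45, against -0.21 on the probe set of the own chromosome. With probe sets of the own chromosome alone, 8 of 76 genes fell by limma, since Mrpl48 has none there. The probe set that Mrpl53 shares with Ccdc142 had 6.91, 7.16 and 7.15 in YAP Tg crypts, against 7.04, 7.15 and 7.25 in control crypts, and cannot be given to either gene.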

How the data were processed

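Total RNA from isolated crypts was measured on Affymetrix mouse arrays, 1 per mouse. The authors deposited log2 signals for 35556 probe sets, made with Affymetrix Expression Console 1.1 per the submitters' processing notes. Neither their normalization nor the array's build is given in the sources used here, and a change shared by all genes could have been removed by that step. Probe sets taken from their numbers to be array controls (6617) were left out. Of the rest, 21789 had 1 gene symbol, 1621 several and 5529 none, and per gene the probe set with the highest mean was kept, with no filter on signal. Groups were taken from the titles. Differences were fitted over all 19938 genes with limma 3.58.1 in R 4.3.3 (two-sided, lmFit followed by eBayes, without covariates), with Benjamini-Hochberg adjustment at 0.05. Nothing but the separate titles shows that the mice were independent, so p-values measure the spread between these samples. The number of arrays limits the precision.

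The genes and lists were chosen with earlier results of these data known, so lists are described by counts and medians, with no test over a list. Genes named are those past the test, the 8 with the largest decrease and 5 with the largest increase, the 2 highest and 2 lowest in level, 14 fixed members, and up to 4 of each other list. Genes of the opposite-strand pairs and of the paragraph on probe sets, and Ccn1, Nrf1, Gabpa and Myc, were added after their values were seen. Only the limma fit without covariates was tried on simulated data, with independent noise and the same SD in both groups. That trial does not cover a larger spread in YAP Tg than in control crypts, or a pattern shared by genes of an array.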

Additional observations from a re-analysis of the deposited data

How the results depend on the processing

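The median difference of the 77 genes kept its direction under every alternative run, from -0.661 to -0.349 when single arrays were left out and -0.386 after quantile normalization, which also moved the median of all genes to -0.00, against 0.03. The count of genes called lower was less stable. It ranged from 0 to 61 when single arrays were left out and was 56 with array weights (17.5% of all genes), against 9. At an adjusted p below 0.1 or 0.01 it was 20 or 0. The share of all genes at those thresholds was not counted, so the 20 cannot be set against a background. The count called higher ranged from 0 to 1 when single arrays were left out and was 1 with array weights, Mrpl14 both times. Limma's array weights were 0.496, 0.249 and 1.16 for YAP Tg arrays 1, 2 and 3 and 1.36 to 2.41 for the controls. Quantile normalization, median centring, filters on signal, means of probe sets, probe sets of the own chromosome (chosen after seeing the data) and a trended and robust prior gave 8 to 12 lower and 0 higher. The 12 came from genes above the median signal, where 15.8% of the mitochondrial ribosomal proteins and 14.3% of all genes were called lower; in the others of these settings the share of all genes was 6.22% to 8.94%.

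With the replicate number as a block, 3 genes were called lower, Mrpl49, Mrps31 and Mrps9 (3.65% of all genes), and 0 higher. The titles do not say whether equal numbers mark paired mice. Deviations from the group means correlated at -0.131, 0.0124 and 0.0983 for numbers 1, 2 and 3. Of the 3 YAP Tg arrays, 1 correlated best with the control of its own number. With 3 arrays per group these values cannot decide whether the mice were paired.

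The median on the least affected YAP Tg array, -0.09 on array 2, ranged from -0.124 to -0.081 when any other single array was left out, and without array 2 the least affected array was array 3, at -0.6. The large minus small difference ranged from -0.012 to 0.069 when single arrays were left out, below 0 without control array 3, and was 0.065 after quantile normalization, against 0.04. Mrps18a ranged from -0.258 (without YAP Tg array 2) to 0.075 (without YAP Tg array 1), with 0.008 without YAP Tg array 3 and 0.018 after quantile normalization. Mrps18c ranged from -0.085 (without control array 1) to 0.066, with 0.005 and 0.056 without YAP Tg arrays 2 and 3, 0.066 and 0.012 without control arrays 2 and 3 and 0.064 after quantile normalization. Of 478 values of 32 named genes, 388 kept their direction and side of the threshold, 50 lost the call, 32 gained one and 8 changed direction. The gains were 17 without YAP Tg array 2 and 15 with array weights. Leaving out any other single array lost 7 to 9 calls, the replicate block 6 and the trended and robust prior 1. The cause was not tested.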
